A study of Mus musculus with 5 samples.

Results

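The neutrophils of AT3-bearing mice were compared between 2 hashtagged populations of 1 single-cell library, MHTO8 and MHTO10. A hashtag is a short DNA oligo on an antibody that marks the cells of 1 sample before samples are pooled. The compared cells were 2956 MHTO8 cells and 2498 MHTO10 cells, 5454 of the 24456 cells of the series that passed the same filters. A cell took the named hashtag with the most counts, provided that this hashtag held at least 80% of the cell's named hashtag counts and at least 20 counts. Cells were then kept with at least 200 detected genes, under 10% of counts from mitochondrial genes, and at least 2% of counts from S100a8 and S100a9, the calcium-binding proteins that fill the neutrophil cytoplasm.

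Both populations came from female wild type C57BL/6J mice that carried tumours of AT3, a mouse mammary carcinoma line. The study sorted neutrophils from bone marrow, peripheral blood and lung, and set naive mice beside mice bearing AT3 or AT3-gcsf tumours, with 1 gene expression library for each condition. About 24000 cells were loaded per lane, 8000 from each hashtagged sample, on the 10x Chromium system with version 3 chemistry. No label says which tissue a hashtag marked, how many mice were pooled or how old they were, so the populations are named by their hashtag. MHTO7, the remaining hashtagged population of the AT3 library with 1969 cells, is given beside them where it helps to place a value. With 1 population on each side there was no replicate, no test was possible and no p-value is given.

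Neutrophils are short-lived leukocytes that are made in the bone marrow, load their granules in a fixed order as they mature, and leave for the blood under the opposing pull of the chemokine receptors Cxcr4 (retention) and Cxcr2 (release). A neutrophil that meets microbial products, cytokines or tissue damage releases NF-kB from its inhibitors and switches on AP-1 and Egr factors. Within a short time it transcribes chemokines that recruit further neutrophils, together with IL-1 beta and the feedback inhibitors that end the signal. Interferons act through a separate set of factors and induce the antiviral genes named interferon-stimulated genes.

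The hashtag oligos that define the populations are shown first, since the comparison rests on them; each runs 5′ to 3′.
MHTO8: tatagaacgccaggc
MHTO10: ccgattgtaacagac
MHTO7: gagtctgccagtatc

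Promoters of Cxcl2, Nfkbia and Ccrl2, higher in MHTO8, and of Ifit3b, lower in MHTO8, are shown next, from RefSeq on GRCm38.p6. Each runs from 250 bases before to 50 bases after the annotated gene start, on the gene's own strand. All of them hold a match, and they do not stand for the other genes that differed. In Cxcl2 (chr5:90903649-90903948, plus strand), Nfkbia (chr12:55492598-55492897, minus strand) and Ccrl2 (chr9:111057469-111057768, minus strand) capitals mark matches to the NF-kB consensus on either strand. In Cxcl2 these are 2 overlapping matches. In Ifit3b (chr19:34607707-34608006, plus strand) capitals mark the 2 matches to the core of the interferon-stimulated response element, searched on both strands as GAAA, any 2 bases and GAAA again.
Cxcl2: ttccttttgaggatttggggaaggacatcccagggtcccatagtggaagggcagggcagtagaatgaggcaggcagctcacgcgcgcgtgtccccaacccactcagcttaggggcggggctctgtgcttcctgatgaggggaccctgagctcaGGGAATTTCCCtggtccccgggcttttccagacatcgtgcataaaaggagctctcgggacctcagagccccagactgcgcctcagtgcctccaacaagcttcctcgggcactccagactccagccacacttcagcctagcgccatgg
Nfkbia: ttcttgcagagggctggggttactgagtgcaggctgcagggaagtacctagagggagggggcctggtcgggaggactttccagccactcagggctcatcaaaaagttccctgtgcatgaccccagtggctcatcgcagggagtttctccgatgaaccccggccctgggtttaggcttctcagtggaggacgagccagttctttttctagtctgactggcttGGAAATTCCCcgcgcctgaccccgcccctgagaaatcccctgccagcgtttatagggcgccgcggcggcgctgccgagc
Ccrl2: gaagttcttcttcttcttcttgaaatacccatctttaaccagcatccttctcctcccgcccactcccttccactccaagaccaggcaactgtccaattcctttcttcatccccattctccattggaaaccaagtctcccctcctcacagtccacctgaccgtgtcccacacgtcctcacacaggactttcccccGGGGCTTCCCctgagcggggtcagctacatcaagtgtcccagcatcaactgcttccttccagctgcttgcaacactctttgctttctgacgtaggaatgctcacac
Ifit3b: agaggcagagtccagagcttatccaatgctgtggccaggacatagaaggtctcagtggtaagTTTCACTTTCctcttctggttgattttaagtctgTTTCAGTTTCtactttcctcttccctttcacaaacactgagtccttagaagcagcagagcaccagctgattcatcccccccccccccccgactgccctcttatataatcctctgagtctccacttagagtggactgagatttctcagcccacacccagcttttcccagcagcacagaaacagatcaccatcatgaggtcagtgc
The NF-kB consensus was found in 8.46% of the 32851 promoters of the table, and in the promoters of 9.55% of its 27025 genes. Of the 21 genes listed here as NF-kB subunits, inhibitors and targets, 17 had a promoter in the table, and 11 of these held the consensus. The response element core was found in 3.44% of promoters and in 3.99% of genes. Among the 36 interferon-stimulated genes listed, 29 had a promoter in the table and 18 of these held the core. A match is a string of letters and was not tested as a binding site.

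Both populations carried the neutrophil label in their RNA. All 10 neutrophil markers checked were above 20 CPM (counts per 1000000 counts of the population) in both. They summed to 280528 CPM in MHTO8 and 275156 CPM in MHTO10, but S100a8 and S100a9 made up most of both sums. Ly6g, the surface protein by which mouse neutrophils are sorted, was at 506 CPM in MHTO8 and 398 CPM in MHTO10. S100a9 stood at 136475 CPM in MHTO8 and 133146 CPM in MHTO10, and S100a8 at 123824 CPM in MHTO8 and 122046 CPM in MHTO10. These S100 genes were used to choose the cells, so their levels and the marker sums are a description. The S100 filter removed 131 MHTO8 cells (4.24%) and 44 MHTO10 cells (1.73%). The cells nearest to the 2% limit had 1.9994% and 2.00271% on its 2 sides in MHTO8, and 1.98958% and 2.04364% in MHTO10.

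Depth differed between the populations. The cells held 19063839 counts of unique molecular identifiers (UMIs) in MHTO8 and 10024086 in MHTO10, with medians of 4968.5 UMIs per MHTO8 cell and 3283.5 UMIs per MHTO10 cell. The median cell had 1280 genes in MHTO8 and 1107.5 genes in MHTO10, and took 0.778% of its counts from mitochondrial genes in MHTO8 and 0.576% in MHTO10. Markers of other cell types made up little of either population. Erythroid markers summed to 698 CPM in MHTO8, mostly from 1 cell, and to 6.68 CPM in MHTO10. Monocyte markers summed to 345 CPM in MHTO8 and 314 CPM in MHTO10, and alveolar and club epithelium markers to 188 CPM in MHTO8 and 136 CPM in MHTO10. Dendritic cell markers summed to 64.3 CPM in MHTO8 and 16.6 CPM in MHTO10, and endothelium markers to 49.4 CPM in MHTO8 and 12.5 CPM in MHTO10. A UMI of the epithelium markers was found in 50.3% of MHTO8 and 42.8% of MHTO10 cells. For dendritic cell markers the shares were 16.8% in MHTO8 and 6.16% in MHTO10. Macrophage markers summed to 20.4 CPM in MHTO8 and 18.3 CPM in MHTO10. Most of this was Adgre1, at 15.9 CPM in MHTO8 and 17.8 CPM in MHTO10, while C1qa, C1qb and C1qc were at or below 0.105 CPM in both. The AT3 library shared 44 of its 7840 barcodes with the naive library and 20 with the AT3-gcsf library.

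Counts were summed over the cells of a population and given as CPM with an exact 95% Poisson interval, which covers counting error only. A gene was called higher or lower in MHTO8 when its log2 ratio, with 5 CPM added to both values, was at least 1 in size, and when it reached 20 CPM in the higher of the 2 sums. The added 5 CPM understates the change of genes with low levels. Of 3797 genes that reached 20 CPM, 258 (6.79%) were called higher and 217 (5.72%) lower in MHTO8. The higher genes moved further: 119 were at least 4-fold and 44 at least 8-fold higher, whereas 5 were at least 4-fold and 0 at least 8-fold lower. The median ratio over all measured genes was -0.28, and a scaling that sets this median near 0 (TMM, a shift of 0.29) gave 343 higher and 75 lower genes. Of the lower genes named below, Cxcr2, Klf2, Txnip, Cited2, Socs3, Xbp1, Itga4, Rgs14, Ankrd37, Egln3, Slc40a1 and Bid had ratios between -0.96 and -0.76 with TMM and lost their call there and with median-of-ratios scaling. Tnfsf9 (-0.88 with TMM) and Rhox8 (-1.51 with TMM) lost theirs too. Neither reached 20 CPM under either scaling, and for Rhox8 this was the only reason. Every list below is therefore read beside -0.28. A gene listed here can be measured through MHTO8 alone, in which case it had to differ, so the counts describe the lists and are no test of them.

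**Figure D1:**
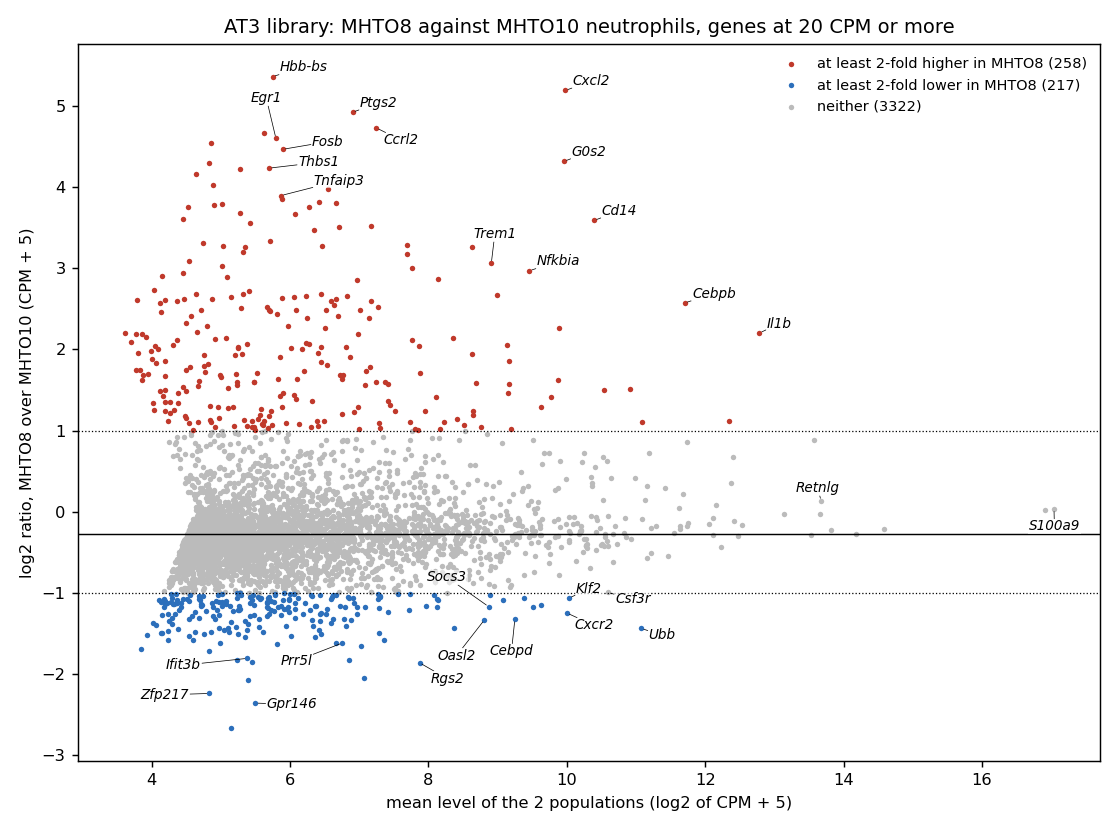
Log2 ratio of each of 3797 genes, MHTO8 over MHTO10 (vertical axis, 5 CPM added to both), against its mean level in the 2 populations (horizontal axis, log2 of CPM + 5); red points are the 258 genes called higher, blue points the 217 called lower, dotted lines the call limits and the solid line the median of -0.28. The higher genes reach past 5 on the log2 scale also at high levels, as Cxcl2 does, while the lower genes mostly lie between -1 and -2.

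Chemokine ligands had the highest list median. Of 15 listed ligands 6 were measured, 5 were called higher and 0 lower, with a median log2 ratio of 2.68. Cxcl3, Ccl2 and Ccl3 reached 20 CPM in MHTO8 only, so they could be measured only as leaning that way. With no minimum level 13 ligands could be set side by side and the median was 0.64. Cxcl2 (chr5:90903871-90905938 in the GRCm38 annotation), the main CXCR2 ligand made by mouse neutrophils themselves, was at 6094 CPM (6059 to 6129.6) in MHTO8 and 162 CPM (154 to 170.3) in MHTO10, a log2 ratio of 5.19. MHTO7 cells had it at 79.4 CPM, so MHTO8 stood apart from both other populations of the lane.

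The difference in Cxcl2 ran through most cells. The median MHTO8 cell had 5167 CPM of Cxcl2, against 0 in the median MHTO10 cell. Of the MHTO8 cells 86.4% lay above 703 CPM, the 95th percentile of the MHTO10 cells. With each cell thinned to 1500 UMIs, which left 2910 MHTO8 and 2462 MHTO10 cells, 89.1% of MHTO8 cells (87.9 to 90.2, exact Clopper-Pearson) and 23.4% of MHTO10 cells (21.7 to 25.1) had a Cxcl2 UMI. Without thinning the shares were 95.8% in MHTO8 and 44.1% in MHTO10. Free RNA can give such UMIs. Among 22 cells of the library that carried lymphocyte markers and little S100a8 or S100a9, with a median of 6243 UMIs, the thinned share was 4.55% (0.115 to 22.8). The same cells gave 22.7% for Il1b, 13.6% for G0s2, 4.55% for Cd14, Cxcr2 and Oasl2, and 0 for Ccrl2. They are no background for Nfkbia, Egr1, Cxcr4 or Rgs2, which lymphocytes transcribe themselves.

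The other called ligands were less abundant. Cxcl3, a close relative of Cxcl2, was at 106 CPM in MHTO8 and 3.09 CPM in MHTO10. Ccl4 and Ccl3, which attract monocytes and T cells, were at 216 and 58.4 CPM in MHTO8, against 29.6 and 4.89 CPM in MHTO10. These 2 came from few cells: 10 MHTO8 cells held 19.7% of the Ccl4 counts and 29.9% of the Ccl3 counts, whereas for Cxcl2 the 10 highest cells held 2.90%. Ccl2, the monocyte attractant, was at 27.1 CPM in MHTO8 and 2.19 CPM in MHTO10, and Ccl6, a CC chemokine of resting myeloid cells, went uncalled at 1278 CPM in MHTO8 and 1718 CPM in MHTO10.

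Il1a had the highest ratio of the measured cytokines (2.90), and Tnf, Il1b and Osm followed it. Of 20 listed cytokines 9 were measured, with 5 higher and 2 lower. Il1a and Tnf reached 20 CPM in MHTO8 only, and Tnfsf9 in MHTO10 only. The median of 1.01 ran from 0.25 to 1.89 over the alternatives. Il1b, whose product is the secreted pyrogen IL-1 beta, was among the most abundant transcripts of both populations, at 15120.5 CPM (15065 to 15176) in MHTO8 and 3284 CPM (3249 to 3319.9) in MHTO10, a log2 ratio of 2.2. It was detected in nearly all cells of both, 98.7% of thinned MHTO8 cells and 94.2% of thinned MHTO10 cells, and the difference was in the amount per cell, with medians of 17861 CPM in MHTO8 cells and 3442 CPM in MHTO10 cells. MHTO7 was the low population for this gene, at 400.0 CPM.

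Il1a, the membrane-bound and nuclear relative of Il1b, was at 43.6 CPM in MHTO8 and 1.5 CPM in MHTO10. Tnf, the prototype inflammatory cytokine, was at 49.9 CPM in MHTO8 and 5.29 CPM in MHTO10. Osm, oncostatin M of the IL-6 family, was at 266 CPM in MHTO8 and 54.3 CPM in MHTO10. All 3 were called higher. Il1rn, the decoy ligand that blocks the IL-1 receptor, was just past the limit at 321 CPM in MHTO8 and 157 CPM in MHTO10 (1.01). Tnfsf14 and Tnfsf9, TNF family ligands of T cell costimulation, were the 2 lower members, at 43.0 and 6.82 CPM in MHTO8 and 135 and 20.2 CPM in MHTO10.

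Of the NF-kB inhibitors and targets 11 of 14 measured were called higher, and of the NF-kB subunits 2 of 5. Together 19 of 21 listed genes were measured, 13 called higher and 0 lower. Of the higher genes Traf1, Tnfaip3, Nfkbie, Nfkbib and Icam1 reached 20 CPM in MHTO8 only, so they could be measured only as leaning that way. The median of 1.56 ran from 1.13 to 2.62 over the alternatives. Nfkbia (chr12:55489410-55492647), the IkB alpha protein that holds NF-kB in the cytoplasm and is itself induced by it, was at 1964 CPM (1944 to 1984) in MHTO8 and 247 CPM (237 to 257) in MHTO10, a ratio of 2.97. A Nfkbia UMI was found in 74.9% of thinned MHTO8 cells (73.3 to 76.5) and 28.6% of thinned MHTO10 cells (26.8 to 30.4).

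The related inhibitors moved the same way. Tnfaip3, the ubiquitin-editing enzyme A20 that ends NF-kB signalling, was at 221 CPM in MHTO8 and 10.2 CPM in MHTO10 (3.89). Nfkbie and Nfkbiz, further IkB family members, were at 121 and 611 CPM in MHTO8, against 8.18 and 71.7 CPM in MHTO10. Traf1, an adaptor of TNF receptors, had the highest ratio of the list (4.03), at 114 CPM in MHTO8 and 2.29 CPM in MHTO10.

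Of the 5 NF-kB subunits, Rel and Nfkb2 were called higher, at 105 and 69.0 CPM in MHTO8 and 37.0 and 25.7 CPM in MHTO10. The other subunits were not called: Relb was at 37.9 CPM in MHTO8 and 17.4 CPM in MHTO10, Rela at 58.9 CPM in MHTO8 and 45.6 CPM in MHTO10, and Nfkb1 at 80.5 CPM in MHTO8 and 68.7 CPM in MHTO10.

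Immediate-early genes, which need no new protein to be transcribed, gave the most calls of the 30 lists. Of 29 listed genes 26 were measured, with 19 higher and 0 lower. Fosb, Fosl1, Egr1, Egr3, Maff, Nr4a1, Nr4a2, Nr4a3, Dusp2, Dusp5 and Klf4 reached 20 CPM in MHTO8 only. These could be measured only as leaning higher. The median of 2.16 ran from 1.67 to 2.46 over the alternatives. Egr1, a zinc finger factor, was at 268 CPM (261 to 276) in MHTO8, against 6.28 CPM (4.83 to 8.04) in MHTO10, and at 2.42 CPM in MHTO7. Fosb and Fosl1, AP-1 subunits, were at 275 and 162 CPM in MHTO8, against 7.68 and 3.99 CPM in MHTO10. A UMI of Egr1 was present in 33.2% of thinned MHTO8 cells (31.5 to 35.0) and in 0.894% of thinned MHTO10 cells (0.561 to 1.35), or 62.5% of MHTO8 cells and 2.32% of MHTO10 cells before thinning.

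Several of these genes encode brakes on the same signals. Dusp2, a phosphatase of MAP kinases, was at 115 CPM in MHTO8 and 3.69 CPM in MHTO10. Nr4a1, an orphan nuclear receptor, was at 279 CPM in MHTO8 and 16.1 CPM in MHTO10, and Atf3, a stress-induced repressor, at 268 CPM in MHTO8 and 23.2 CPM in MHTO10. Fos itself was at 1141 CPM in MHTO8 and 269.9 CPM in MHTO10 (2.06), and Btg2, an antiproliferative gene, at 2075 CPM in MHTO8 and 427 CPM in MHTO10 (2.27).

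The group was not uniform. Jun, the partner of Fos in AP-1, was at 75.4 CPM in MHTO8 and 88.1 CPM in MHTO10. Zfp36, the mRNA-decay factor tristetraprolin, was at 357 CPM in MHTO8 and 479 CPM in MHTO10, and Ier5 at 364 CPM in MHTO8 and 600.1 CPM in MHTO10. Neither these 3 nor Klf6 (314 CPM in MHTO8, 399.9 CPM in MHTO10) passed the limit, and they were chosen after their values were seen, as uncalled members with negative ratios.

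Cell isolation from solid tissue can itself induce immediate-early and heat shock genes. Of 16 listed genes of such a dissociation response, 14 were measured, 7 higher and 1 lower, with a median of 1.02; Hspa1a and Hspa1b did not reach 20 CPM in either population. The 7 higher genes were Egr1, Fosb, Nr4a1, Atf3, Fos, Junb and Dnaja1, of which all but Dnaja1 are also immediate-early genes counted above. Socs3 was the lower one, at 307 CPM in MHTO8 and 696 CPM in MHTO10. Among 17 heat shock and endoplasmic reticulum stress genes, 10 were measured, 2 higher and 1 lower. Ppp1r15a, the stress-induced subunit that restarts translation, was at 365 CPM in MHTO8 and 18.6 CPM in MHTO10 (3.97), Dnaja1, an Hsp40 co-chaperone, at 377 CPM in MHTO8 and 156 CPM in MHTO10 (1.24), and Xbp1, a factor of the unfolded protein response, at 106 CPM in MHTO8 and 256 CPM in MHTO10 (-1.23). The part of cell isolation in the difference was not tested.

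**Figure D2:**
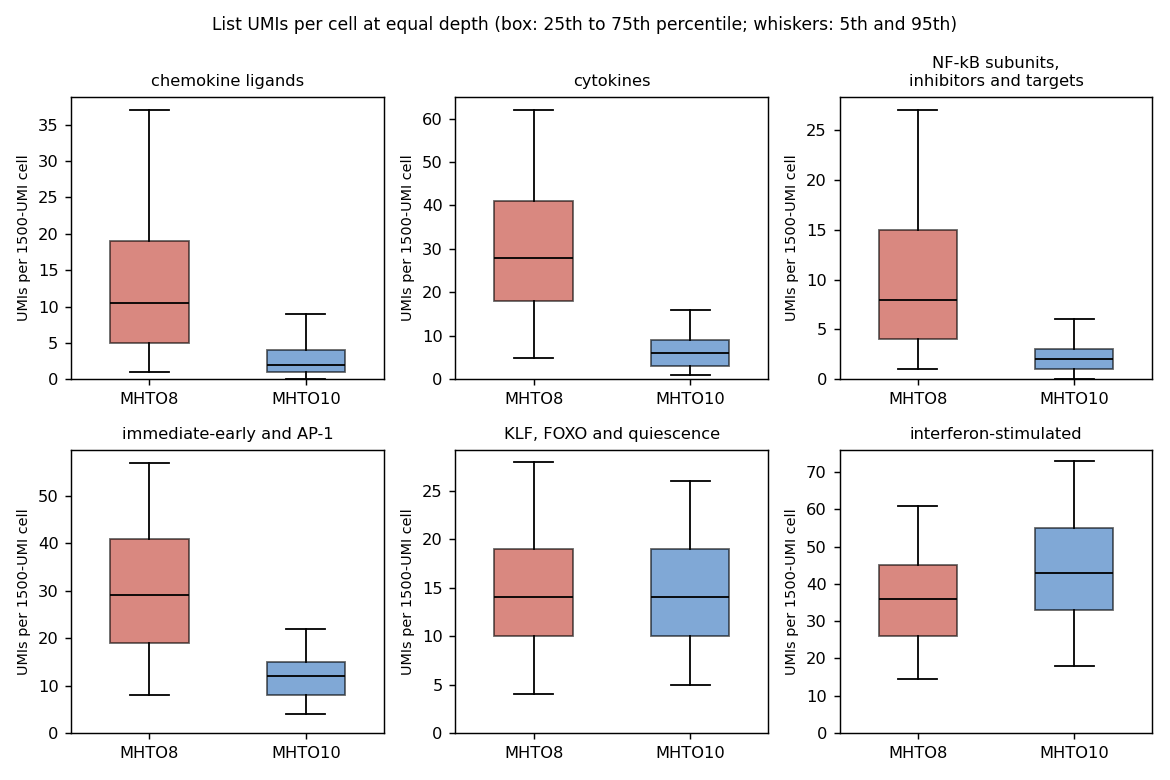
UMIs from 6 gene lists per cell (vertical axes) in MHTO8 and MHTO10 cells after each cell was thinned to 1500 UMIs; the line in each box is the median, the box runs from the 25th to the 75th percentile and the whiskers from the 5th to the 95th. The median MHTO8 cell had 8 UMIs of NF-kB genes and 29 of immediate-early genes, against 2 and 12 in the median MHTO10 cell. For interferon-stimulated genes the median was 36 in MHTO8 and 43 in MHTO10, in a sum that was mostly Ifitm1 and Ifitm2, both uncalled.

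At equal depth, the cells of the populations overlapped to different degrees from list to list. The median MHTO8 cell held 28 cytokine UMIs of 1500, against 6 in the median MHTO10 cell, and 77.7% of MHTO8 cells lay above the 95th percentile of MHTO10 cells. For chemokine ligands the medians were 10.5 UMIs in MHTO8 and 2 UMIs in MHTO10, and 53.9% of MHTO8 cells lay above that percentile. For NF-kB genes the share was 59.3% and for immediate-early genes 67.5%. Such sums follow their most abundant members. For cytokines that was Il1b in both populations. The interferon-stimulated sum was mostly Ifitm1 (10670 CPM in MHTO8, 13059 CPM in MHTO10) and Ifitm2 (5228 CPM in MHTO8, 5671 CPM in MHTO10), both uncalled. For chemokine ligands it was Cxcl2 in MHTO8 (6094 CPM) but Ccl6 in MHTO10 (1718 CPM).

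Outside the signalling lists, Ptgs2 and Thbs1 stood among the highest ratios. Ptgs2, the inducible cyclooxygenase COX-2 that makes prostaglandins, was at 654 CPM (642 to 665) in MHTO8 and 16.8 CPM (14.3 to 19.5) in MHTO10, a ratio of 4.92. It was the 1 higher gene among 5 measured of 13 eicosanoid synthesis genes: Alox5ap, the activating protein of 5-lipoxygenase, was at 2733 CPM in MHTO8 and 3276 CPM in MHTO10, and Lta4h, which makes leukotriene B4, at 25.9 CPM in MHTO8 and 20.5 CPM in MHTO10. Neither was called.

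Of 16 repair and vessel growth factors 7 were measured, 6 higher and 0 lower, with a median of 2.2 that ran from 0.55 to 2.69 over the alternatives. Thbs1, Areg, Vegfa and F3 reached 20 CPM in MHTO8 only, so they could be measured only as leaning that way. Thbs1, thrombospondin of the extracellular matrix, was at 220.2 CPM in MHTO8 and 6.98 CPM in MHTO10. Areg, an EGF receptor ligand, was at 71.7 CPM in MHTO8 and 1.30 CPM in MHTO10, with 21.7% of its MHTO8 counts in 10 cells. Plaur, the urokinase receptor, was at 1279.8 CPM in MHTO8 and 197 CPM in MHTO10, Vegfa, the vascular growth factor, at 38.5 CPM in MHTO8 and 7.68 CPM in MHTO10, and F3, the tissue factor that starts coagulation, at 21.2 CPM in MHTO8 and 0.698 CPM in MHTO10.

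Suppressor-cell effectors are genes by which myeloid cells of tumour-bearing hosts restrain T cells. Of 17 listed 11 were measured, 3 were higher and 0 lower, with a median of 0.37, and 9 of the 11 lay above the median of all genes. Beside Ptgs2 these were Acod1, which makes itaconate, at 1229 CPM in MHTO8 and 123 CPM in MHTO10, and Cd274, the checkpoint ligand PD-L1, at 57.5 CPM in MHTO8 and 25.3 CPM in MHTO10. Arg2 was uncalled at 422 CPM in MHTO8 and 333 CPM in MHTO10, Cd84 at 168 CPM in MHTO8 and 318 CPM in MHTO10, and Arg1, Nos2 and Il10 did not reach 20 CPM in either population.

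G0s2, an inhibitor of the lipase that opens lipid droplets, was at 4441 CPM (4411 to 4471) in MHTO8 and 218 CPM (209 to 228) in MHTO10, a ratio of 4.32. A UMI of G0s2 was found in 83.5% of thinned MHTO8 cells (82.1 to 84.8) and 25.5% of thinned MHTO10 cells (23.8 to 27.3). Hilpda, a further inhibitor of that lipase and a hypoxia target, was at 220.2 CPM in MHTO8 and 10.6 CPM in MHTO10. It was the 1 called gene of 8 measured in the lipid list; Plin2, the coat protein of lipid droplets, was at 266 CPM in MHTO8 and 154 CPM in MHTO10 and Acsl1, which activates fatty acids, at 30.6 CPM in MHTO8 and 42.4 CPM in MHTO10.

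Glycolysis and hypoxia genes stayed close to the median of all genes. Of 27 listed 26 were measured, 3 higher and 2 lower, with a median of -0.23. The higher ones were Hilpda, Vegfa and Slc16a3, the lactate exporter, the last at 1090.3 CPM in MHTO8 and 297 CPM in MHTO10. The lower ones were Ankrd37, at 15.2 CPM in MHTO8 and 41.8 CPM in MHTO10, and Egln3, an oxygen-sensing hydroxylase, at 12.8 CPM in MHTO8 and 34.5 CPM in MHTO10, both of them targets of the hypoxia-inducible factor.

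In the redox and iron list 16 of 20 genes were measured, 4 higher and 1 lower, with a median of 0.19. Slc7a11, the cystine importer, was at 637 CPM (626 to 649) in MHTO8 and 61.0 CPM (56.2 to 66.0) in MHTO10 (3.28). Srxn1 and Txnrd1, reductases that repair oxidised proteins, were at 37.2 and 66.8 CPM in MHTO8, against 2.09 and 13.8 CPM in MHTO10, and Sod2, the mitochondrial superoxide dismutase, at 152 CPM in MHTO8 and 32.7 CPM in MHTO10. Hmox1, the haem oxygenase, went uncalled at 101 CPM in MHTO8 and 141 CPM in MHTO10, and Slc40a1, the iron exporter ferroportin, was lower at 189 CPM in MHTO8 and 406 CPM in MHTO10.

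Survival genes are read beside the shares over all genes, 6.79% higher and 5.72% lower, at which a list this short can hold 1 lower call. Of 21 listed 16 were measured, 4 higher and 1 lower, with a median of 0.08. Bcl2a1b, an antiapoptotic BCL2 relative, was at 88.0 CPM in MHTO8 and 6.38 CPM in MHTO10; it has near-identical copies between which reads can be split, so its level is uncertain. Bcl2l1, the antiapoptotic BCL-XL, was at 67.8 CPM in MHTO8 and 28.6 CPM in MHTO10, and Birc3, an inhibitor of apoptosis, at 222 CPM in MHTO8 and 101 CPM in MHTO10. Bcl2l11, the proapoptotic BIM, was also higher, at 194 CPM in MHTO8 and 36.5 CPM in MHTO10. Bid, likewise proapoptotic, was lower at 28.0 CPM in MHTO8 and 64.0 CPM in MHTO10, a call lost with TMM (-0.80). Mcl1, the survival factor on which neutrophils depend, was at 2557 CPM in MHTO8 and 2047 CPM in MHTO10 and uncalled.

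**Figure D3:**
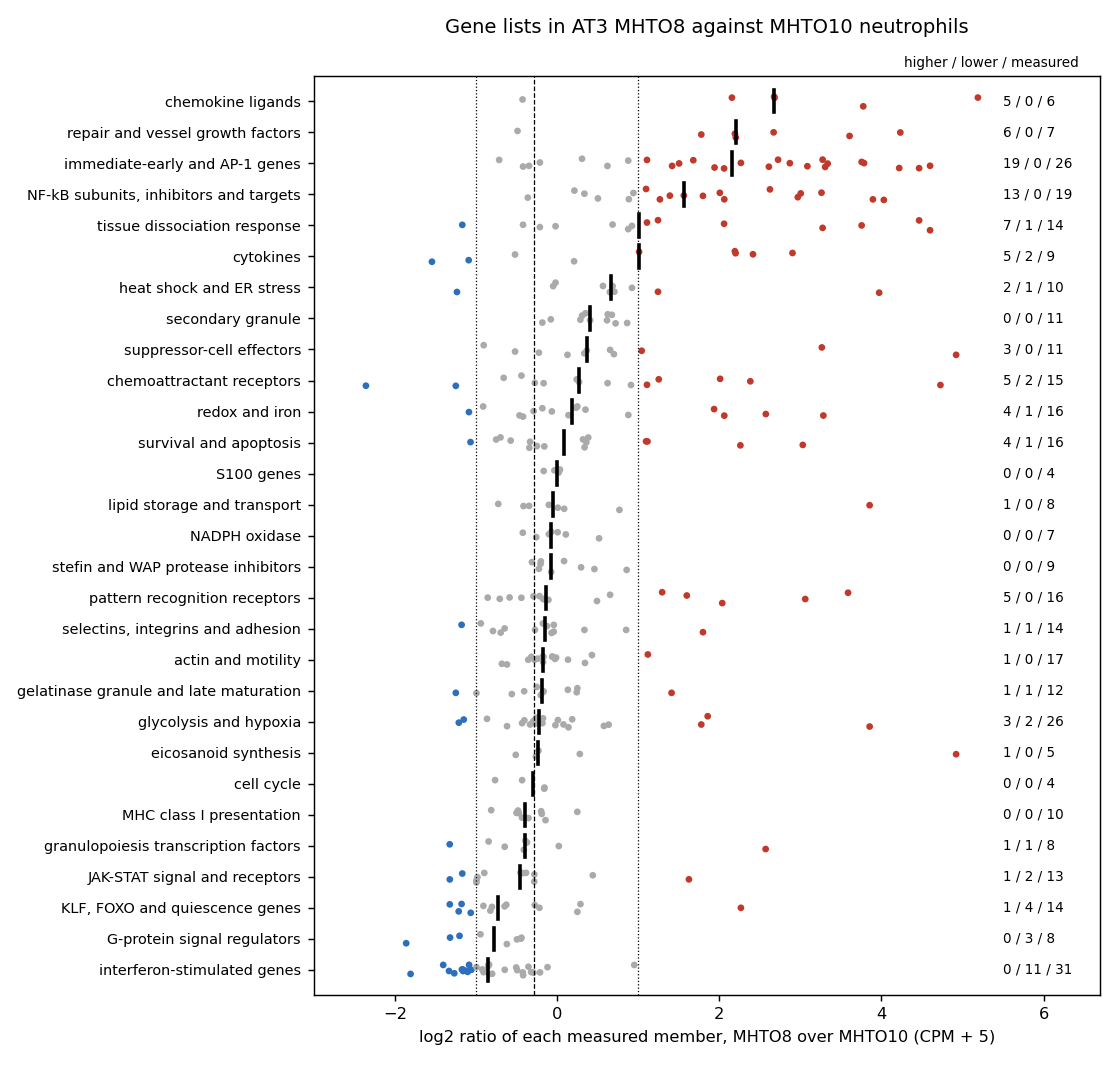
Log2 ratio of every measured member (points) of the gene lists with at least 4 measured members, MHTO8 over MHTO10; black bars are list medians, the dashed line the median of all genes at -0.28, dotted lines the call limits, and the numbers at the right the members higher, lower and measured. Chemokine ligands lie at the top with a median of 2.68 and interferon-stimulated genes at the bottom with -0.85.

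Receptors of the innate sensing system changed in a few members with high levels. Of 21 pattern recognition receptors 16 were measured, 5 higher and 0 lower, while the list median was -0.13. Cd14, the lipopolysaccharide co-receptor, was at 4666 CPM (4636 to 4697) in MHTO8, against 383 CPM (371 to 396) in MHTO10 and 99.0 CPM in MHTO7. A UMI of Cd14 was found in 93.2% of thinned MHTO8 cells (92.2 to 94.1) and in 39.9% of thinned MHTO10 cells (37.9 to 41.9), well apart from the lymphocyte-marker cells given above.

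Trem1, an amplifier of Toll-like receptor signals, was at 1383 CPM in MHTO8 and 161 CPM in MHTO10. Nlrp3, the inflammasome sensor that leads to IL-1 beta release, was at 464 CPM in MHTO8 and 109 CPM in MHTO10, Tlr2, which senses bacterial lipoproteins, at 258 CPM in MHTO8 and 81.9 CPM in MHTO10, and Clec4e, the Mincle lectin, at 1239 CPM in MHTO8 and 502 CPM in MHTO10. Tlr4, the lipopolysaccharide receptor itself, was at 29.6 CPM in MHTO8 and 46.9 CPM in MHTO10 and not called.

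Chemoattractant receptors went both ways. Of 19 listed 15 were measured, 5 higher and 2 lower, with a median of 0.27. Ccrl2, a non-signalling receptor that binds chemerin, was at 777 CPM (765 to 790.0) in MHTO8 and 24.5 CPM (21.6 to 27.8) in MHTO10 (4.73), and was detected in 43.1% of thinned MHTO8 cells and 4.18% of thinned MHTO10 cells. Hcar2, the niacin and butyrate receptor, was at 318 CPM in MHTO8 and 56.9 CPM in MHTO10, and Gpr35 at 124 CPM in MHTO8 and 27.1 CPM in MHTO10. Gpr84, a receptor for medium-chain fatty acids, was higher as well, at 20.2 CPM in MHTO8 and 5.59 CPM in MHTO10.

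The receptors of marrow retention and release ran in opposite directions. Cxcr4 was at 436 CPM (427 to 445) in MHTO8 and 199 CPM (191 to 208) in MHTO10, a ratio of 1.11 that lay near the limit. Cxcr2, the receptor for Cxcl2, was at 661 CPM (649 to 672) in MHTO8 and 1577 CPM (1552 to 1602) in MHTO10, a ratio of -1.25. Of thinned cells 63.5% of MHTO8 and 88.6% of MHTO10 cells had a Cxcr2 UMI. A Cxcr4 UMI was present in 46.5% of MHTO8 and 27.7% of MHTO10 cells. The cells overlapped widely in Cxcr4: 15.7% of MHTO8 cells exceeded the 95th percentile of MHTO10 cells.

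Gpr146, an orphan receptor known in the liver for its part in cholesterol metabolism, had the lowest ratio of any named gene (-2.36). It was at 15 CPM (13.3 to 16.8) in MHTO8 and 97.5 CPM (91.4 to 104) in MHTO10, and at 23.6 CPM in MHTO7. A UMI of Gpr146 was found in 2.2% of thinned MHTO8 cells (1.70 to 2.80) and 15.3% of thinned MHTO10 cells (13.9 to 16.8). In the lymphocyte-marker cells it was 1 of 22, too few to set a background for either share.

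Regulators of G-protein signalling, which switch off receptor signals, had ratios below the median of all genes in each of the 8 measured members of 13. Of these 3 were called lower and 0 higher, with a median of -0.78 that ran from -0.94 to -0.45 over the alternatives. Rgs2 was at 118 CPM (113 to 123) in MHTO8 and 441 CPM (428 to 454) in MHTO10 (-1.86), Rgs3 at 57 CPM in MHTO8 and 149.7 CPM in MHTO10, and Rgs14 at 34.6 CPM in MHTO8 and 86.2 CPM in MHTO10. Rgs2 was found in 16.8% of thinned MHTO8 cells and 51.8% of thinned MHTO10 cells.

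The KLF, FOXO and quiescence genes, which mark resting circulating leukocytes, included 14 measured of 19, with 4 lower and 1 higher and a median of -0.72. Klf2, a factor that restrains inflammatory transcription, was at 718 CPM (706 to 730.2) in MHTO8 and 1507 CPM (1483 to 1532) in MHTO10. Txnip, a brake on glucose uptake, was at 481 CPM in MHTO8 and 1094 CPM in MHTO10, Cited2, a transcriptional co-regulator, at 46.3 CPM in MHTO8 and 114 CPM in MHTO10, and Il6ra, the IL-6 receptor, at 64.7 CPM in MHTO8 and 169 CPM in MHTO10. Btg2, named above, was the higher one. With TMM 1 lower call was left, Il6ra, and the list median was -0.44 against an all-gene median of 0.01. The summed UMIs of the list did not differ in the median cell, at 14 of 1500 UMIs in both populations. That sum includes Btg2, at 2075 CPM in MHTO8 and 427 CPM in MHTO10, which runs against the lower members.

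In the JAK-STAT list of growth factor and cytokine signalling 13 of 19 genes were measured, 1 higher and 2 lower, with a median of -0.45. Csf3r, the G-CSF receptor, was at 1088 CPM (1073 to 1103) in MHTO8 and 2173 CPM (2144 to 2202) in MHTO10, and at a ratio of -0.99 it fell just short of a call. Socs3 and Il6ra were the lower genes, and Pim1, a kinase induced by STAT factors, was higher at 1642 CPM in MHTO8 and 529 CPM in MHTO10.

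Interferon-stimulated genes had the lowest list median. Of 36 listed 31 were measured, 0 were called higher and 11 lower, with a median of -0.85 that ran from -0.99 to -0.58 over the alternatives. Ifit3b and Ifit3, tetratricopeptide proteins that bind viral RNA, were at 17.3 and 32.9 CPM in MHTO8, against 73.0 and 95.4 CPM in MHTO10. These neighbours on chromosome 19 are near-identical copies between which reads can be split, and in MHTO8 10 cells held 22.4% of the Ifit3b and 21.2% of the Ifit3 counts.

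Oasl2, of the oligoadenylate synthetase family, was at 278 CPM (270.2 to 285) in MHTO8 and 707 CPM (690.2 to 723) in MHTO10. It was found in 35.1% of thinned MHTO8 cells (33.4 to 36.9) and 63.0% of thinned MHTO10 cells (61.1 to 64.9). Irgm1, an immunity-related GTPase, was at 23.8 CPM in MHTO8 and 64.3 CPM in MHTO10, and Irgm2, outside the list but among the lowest ratios, at 10.6 CPM in MHTO8 and 46.3 CPM in MHTO10. Isg15, the ubiquitin-like product of the same response, ran against the list at 636 CPM in MHTO8 and 327 CPM in MHTO10 (0.95), and was called higher with TMM. Under TMM 4 of the 31 measured genes were lower and 1 higher.

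Genes of MHC class I presentation, many of them also interferon targets, gave 0 calls among 10 measured of 12, with a median of -0.39. At the shares over all genes, 6.79% higher and 5.72% lower, a list this short can hold 0 calls. Tap1, the peptide transporter, was at 57.3 CPM in MHTO8 and 104 CPM in MHTO10.

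**Figure D4:**
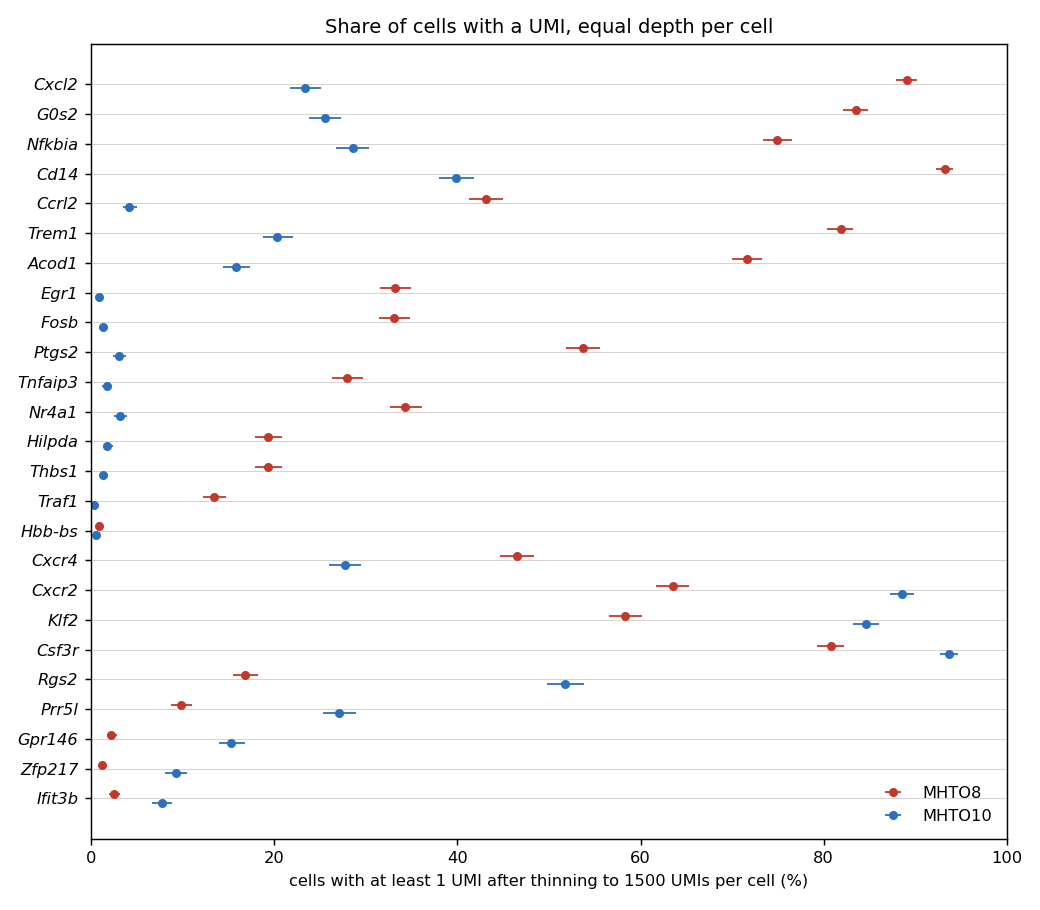
Share of cells with at least 1 UMI of each gene (horizontal axis, percent) among 2910 MHTO8 and 2462 MHTO10 cells, each thinned to 1500 UMIs; bars are exact 95% intervals for counting error. Genes from Cxcl2 to Traf1, and Cxcr4, were found in more MHTO8 cells and genes from Cxcr2 to Ifit3b in more MHTO10 cells, while Hbb-bs was rare in both.

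Among transcription factors of granulopoiesis, the C/EBP family members moved apart. Cebpb, which drives emergency granulopoiesis and inflammatory genes, was at 8134 CPM (8093 to 8174) in MHTO8 and 1364 CPM (1341 to 1387) in MHTO10 (2.57). Of MHTO8 cells 93.2% lay above the 95th percentile of MHTO10 cells for Cebpb, the highest such share of the genes examined in this way. Cebpd, a relative of Cebpb, was at 379.7 CPM in MHTO8 and 958 CPM in MHTO10 (-1.32). No other of the 8 measured factors was called; Klf5 was at 9.23 CPM in MHTO8 and 20.6 CPM in MHTO10, Klf13 at 248 CPM in MHTO8 and 391 CPM in MHTO10.

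Calls among maturation genes are read beside the shares over all genes, 6.79% higher and 5.72% lower, at which lists this short can hold 0. Of 13 secondary granule genes, which are transcribed in marrow myelocytes and metamyelocytes, 11 were measured and 0 were called, with a median of 0.41, and all 11 lay above the median of all genes. With TMM 2 of the 11 were called higher. Camp, the antimicrobial cathelicidin, was at 1848 CPM (1829 to 1868) in MHTO8 and 1156 CPM (1135 to 1177) in MHTO10, with 27.2% of the MHTO8 counts in 10 cells, and at 10518 CPM in MHTO7. Ngp and Ltf, which is lactoferrin, were at 4583 and 1040.2 CPM in MHTO8 and 2516 and 629 CPM in MHTO10. Camp was found in 28.3% of thinned MHTO8 cells and 27.3% of thinned MHTO10 cells, against 31.8% (13.9 to 54.9) of the lymphocyte-marker cells, so its shares lie within the background. Ngp was found in 46.0% of MHTO8 and 47.1% of MHTO10 cells, against 18.2% (5.19 to 40.3) of lymphocyte-marker cells, and Ltf in 17.7% of MHTO8 and 15.1% of MHTO10 cells, against 0 of 22.

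Of the gelatinase granule and late maturation genes 12 of 13 were measured, with 1 higher and 1 lower. Il1r2, the IL-1 decoy receptor, was at 1419.9 CPM in MHTO8 and 531 CPM in MHTO10 (1.41), and Cxcr2, already given, was the lower one. Retnlg, a resistin-like protein of mature neutrophils, was at 13685 CPM in MHTO8 and 12478 CPM in MHTO10. Of the primary granule list 2 of 10 members were measured and 0 called. Ctsc was at 51.6 CPM in MHTO8 and 28.7 CPM in MHTO10, and Serpinb1a at 107 CPM in MHTO8 and 65.1 CPM in MHTO10. Mpo, Elane, Prtn3 and Ctsg, the granule proteins that belong to promyelocytes, did not reach 20 CPM in either population. In the cell cycle list 4 of 20 were measured and 0 called; Hmgb2, a chromatin protein, was at 824 CPM in MHTO8 and 1112 CPM in MHTO10.

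NADPH oxidase genes, which make the respiratory burst, gave 0 calls among 7 measured of 8, with Cybb at 134 CPM in MHTO8 and 92.2 CPM in MHTO10. Stefins and WAP protease inhibitors gave 0 calls among 9 measured of 11, although stefin copies can share reads. At the shares called over all genes, lists as short as these 2 can hold 0 calls. Of 17 actin and motility genes all were measured and 1 called: Actg1, cytoplasmic gamma actin, was at 7694 CPM in MHTO8 and 3539 CPM in MHTO10 (1.12), while Actb, beta actin, was at 12828 CPM in MHTO8 and 13053 CPM in MHTO10. Among 17 adhesion genes 14 were measured, 1 higher and 1 lower: Icam1, the integrin ligand, was at 45.4 CPM in MHTO8 and 9.48 CPM in MHTO10, and Itga4, the alpha chain of VLA-4, at 78.3 CPM in MHTO8 and 183 CPM in MHTO10.

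The remaining genes at the ends of the ranking belonged to none of these lists. Mpp7, a scaffold protein of cell polarity, was at 243 CPM in MHTO8 and 4.79 CPM in MHTO10 (4.66), and found in 29.4% of thinned MHTO8 cells and 0.772% of thinned MHTO10 cells. At the low end Zfp217, a zinc finger repressor, was at 8.13 CPM in MHTO8 and 57 CPM in MHTO10 (-2.24), and Relt, a TNF receptor family member, at 15.6 CPM in MHTO8 and 81.4 CPM in MHTO10 (-2.07). Rnd1 was at 17.9 CPM in MHTO8 and 77.8 CPM in MHTO10, and Tnfaip8l2, which restrains innate and T cell responses, at 56.1 CPM in MHTO8 and 212 CPM in MHTO10. Prr5l, a partner of the mTORC2 complex, was at 56.7 CPM in MHTO8 and 184 CPM in MHTO10, and Lfng, a glycosyltransferase that modifies Notch, at 27.0 CPM in MHTO8 and 94.2 CPM in MHTO10.

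The others of the 14 lowest named genes were Tmem140 (14.9 CPM in MHTO8, 65.7 CPM in MHTO10), Tbc1d14 (68.6 CPM in MHTO8 and 226 CPM in MHTO10), Slc12a9 (13.1 CPM in MHTO8 and 50.6 CPM in MHTO10) and Rhox8 (3.04 CPM in MHTO8 and 20.9 CPM in MHTO10). For Rhox8 10 cells held 34.5% of the MHTO8 counts.

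The highest ratio of all belonged to haemoglobin and rested on very few cells. Hbb-bs, adult beta globin, was at 339.6 CPM in MHTO8 and 3.39 CPM in MHTO10 (5.36), and Hba-a1, Hba-a2 and Hbb-bt were likewise among the 14 highest. Of the 13257 haemoglobin UMIs of MHTO8, 11509 (86.8%) came from 1 cell, in which they made up 62.0% of all UMIs. A haemoglobin UMI was present in 124 MHTO8 cells (4.19%) and 55 MHTO10 cells (2.2%). Without that cell haemoglobin was at 91.7 CPM in MHTO8, against 6.68 CPM in MHTO10. The globin copies can share reads. Leaving out every cell with a haemoglobin UMI, an alternative added after the data were seen, left 258 higher and 225 lower genes.

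**Figure D5:**
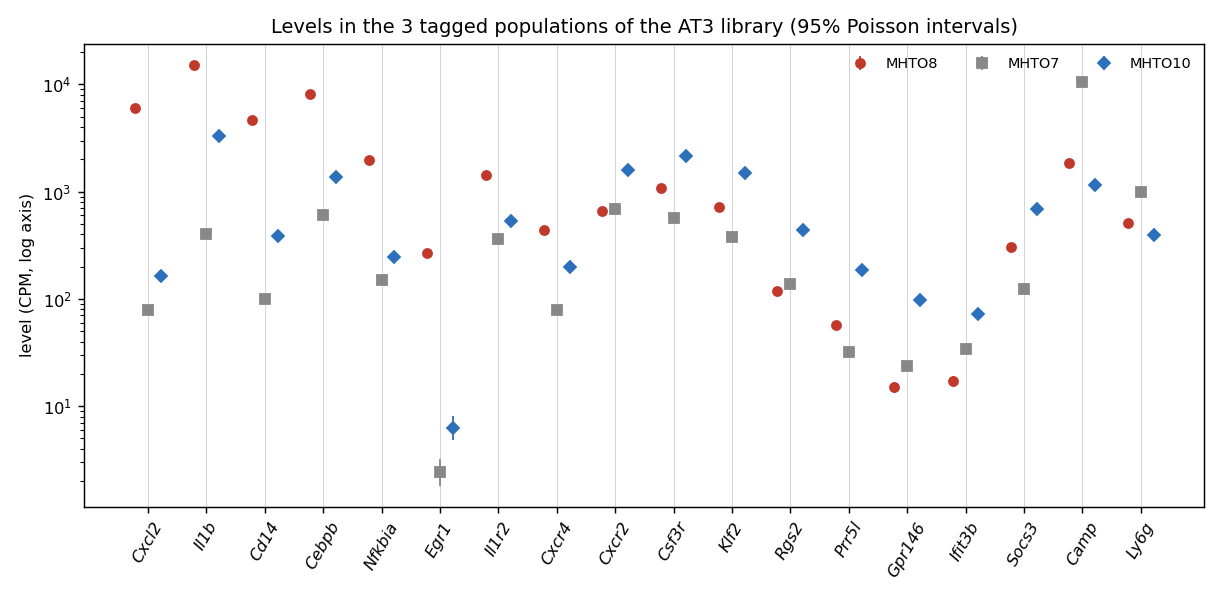
Level of 18 genes (CPM, log axis) in the MHTO8, MHTO7 and MHTO10 populations of the AT3 library; bars, mostly smaller than the symbols, are exact 95% Poisson intervals. For the first 5 genes MHTO8 is highest and MHTO7 lowest, whereas Camp is highest in MHTO7 at 10518 CPM, against 1848 CPM in MHTO8 and 1156 CPM in MHTO10.

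MHTO7 helps to place the pair. For Cxcl2, Il1b, Cd14, Cebpb and Nfkbia, MHTO10 lay between MHTO8 and MHTO7. For Gpr146, Prr5l, Rgs2, Klf2, Socs3 and Csf3r, MHTO10 was the highest of the 3 populations: Prr5l was at 56.7 CPM in MHTO8, 31.7 CPM in MHTO7 and 184 CPM in MHTO10, and Csf3r at 1088, 565 and 2173 CPM in that order.

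The same genes were unevenly spread over the populations of the other libraries. Cxcl2 was at 7206 CPM in naive MHTO5 cells and 4916 CPM in AT3-gcsf MHTO5 cells, and at no more than 229.8 CPM in the MHTO3 and MHTO4 cells of those libraries. Ccrl2 was at 1066 and 379 CPM in the MHTO5 cells of the naive and AT3-gcsf libraries, and at most 35.0 CPM in the other 4 populations. Gpr146 was lowest in naive MHTO4 at 8.65 CPM and naive MHTO5 at 9.02 CPM, and reached 47.7 CPM in naive MHTO3, against 97.5 CPM in AT3 MHTO10. Ifit3b was at 91.2 CPM in naive MHTO3 and between 2.23 and 4.84 CPM in the AT3-gcsf populations. A hashtag number used in different libraries is not known to mark the same tissue, so these values stand side by side without a comparison.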

How the data were processed

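The study measured RNA of single neutrophils and, in separate libraries, the hashtag antibody oligos of the same cells. The counts deposited by the authors are UMI counts per gene and cell barcode from Cell Ranger 4.0.0, per the file headers and the submitters' processing notes, which also name bcl2fastq 2.20.0.422 and the mm10 build. The deposited hashtag counts are counts per oligo and barcode, made with a program not given in the sources used here. Each condition has 1 gene expression library.

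Barcodes of the AT3 library were joined to its hashtag counts after the barcode suffix was removed. The dominant hashtag was in the joined file for 97.4% of barcodes, against at most 0.459% when joined to another library's hashtags. Of 7840 barcodes 206 (2.63%) had no dominant hashtag by this rule, which can include barcodes with more than 1, and the filters of the report left 2956 of 3101 tagged MHTO8 cells and 2498 of 2543 tagged MHTO10 cells. Doublets were treated by the hashtag rule alone, with Scrublet (scanpy 1.11.5) as an alternative that left 2805 MHTO8 and 2488 MHTO10 cells. UMI counts were summed per population and divided by the population total, and the depth behind every level is that total, 19063839 UMIs in MHTO8 and 10024086 in MHTO10. Genes under 20 CPM in both sums were not measured for calls, 5 CPM was added before log2 ratios, and a call needed a ratio of 1 in size. Intervals cover counting error only, and amplified UMIs of 1 cell are not independent samples. Thinning drew 1500 UMIs per cell with seed 7. TMM factors came from edgeR 4.0.16 and size factors from DESeq2 1.42.0, used for scaling only, in R 4.3.3; hashtag calls by HTODemux came from Seurat 5.3.0. Other steps ran in Python 3.11.15, and the ratio step was tested on simulated data.

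The text names the 14 highest and 14 lowest named genes by ratio, up to 4 genes of each list by size of ratio, and Cxcl2, Il1b, Nfkbia, Fos, Cxcr2, Cxcr4, Csf3r, Klf2, Ly6g, Camp, S100a8 and S100a9. Some of the genes picked by the list rule, all of them uncalled, were left out of the text. Gene models without a symbol were counted and not named, 9 of the higher and 16 of the lower calls. Other genes of the lists were named after their values were seen. The populations and the 30 gene lists were chosen with earlier results of these data known. In all 17 other settings and 3 later ones were tried, over hashtag rule, cell filters, pseudocount, minimum level, scaling and weighting. Promoter sequences are RefSeq's on GRCm38.p6, matched by symbol.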

Additional observations from a re-analysis of the deposited data

How the results depend on the processing

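With a single population on each side, no replicate could be left out. No paired analysis was possible because each hashtag marks 1 population and no replicate number links them. Over 17 other settings chosen at the outset and 3 chosen after the data were seen, the number of higher genes lay between 137 and 405 and that of lower genes between 70 and 382, beside 258 and 217. Lower calls fell to 70 with a pseudocount of 20 CPM, to 75 with TMM scaling and to 77 with median-of-ratios scaling. Both scalings raise every ratio, so all 258 higher calls were bound to be kept and this says nothing of their stability. Of the 217 lower ones 75 and 77 were kept. A minimum of 100 CPM left 137 higher and 72 lower genes. With no S100a8 and S100a9 minimum there were 405 higher genes, and without cells that held a UMI of another cell type's markers, which left 356 MHTO8 and 488 MHTO10 cells, 382 lower genes; the cause was not tested. Of the 475 calls 3 changed sign in some setting. In that last setting Hba-a2 had a log2 ratio of -0.14 and Epas1 of -0.19. Sftpc, with most of its counts in 1 cell, had -0.31 with HTODemux tags, -0.56 with no S100 minimum, -0.30 with an S100 minimum of 10% and -0.30 without cells of more than 3000 genes. Every other called gene kept its sign in each of these settings. The scalings, pseudocounts and minimum levels tried could not turn the sign of a call, so only the choice, thinning and weighting of cells bear on this. Interferon-stimulated genes gave 4 lower calls under either scaling, 5 with a pseudocount of 20 CPM and 16 in thinned cells, beside 11. NF-kB genes gave 10 to 15 higher calls and 0 lower, and pattern recognition receptors 5 higher calls in every alternative. Depth limits the low genes: 1 UMI was worth 0.0525 CPM in MHTO8 and 0.0998 CPM in MHTO10.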

Other observations

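Within a population, list levels were set against each other across cells. Across 2910 thinned MHTO8 cells the Spearman rho between NF-kB genes and immediate-early genes was 0.58, and across 2462 MHTO10 cells it was 0.24. Between NF-kB genes and cytokines it was 0.60 in MHTO8 and 0.22 in MHTO10, and between NF-kB genes and chemokine ligands 0.40 in MHTO8 and -0.03 in MHTO10. Between NF-kB genes and interferon-stimulated genes it was 0.10 in MHTO8 and 0.07 in MHTO10. Between NF-kB genes and the KLF, FOXO and quiescence genes, with 4 members lower and 1 higher, it was 0.39 in MHTO8 and 0.20 in MHTO10. Between chemokine ligands and immediate-early genes it was 0.33 in MHTO8 and -0.04 in MHTO10. List sums follow their most abundant members. The chemokine sum was mostly Cxcl2 in MHTO8 but mostly Ccl6, an uncalled gene, in MHTO10. Its rho values in the 2 populations thus rest on different genes. The cytokine sum was mostly Il1b in both, and the interferon-stimulated sum mostly Ifitm1 and Ifitm2, both uncalled. The lists of each pair share no gene, but the cells share 1 library and sparse counts lower any such value, so these are descriptions.

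Ribosomal protein genes took 3.26% of counts in MHTO8 and 3.79% in MHTO10, and 0 of 81 were called. The nuclear RNA Malat1 took 2.28% in MHTO8 and 2.63% in MHTO10. Of 10 mitochondrially encoded genes 2 were called higher: mt-Nd2 was at 127 CPM in MHTO8 and 55.9 CPM in MHTO10, and mt-Nd3 at 65.6 CPM in MHTO8 and 28.7 CPM in MHTO10.

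Beside the haemoglobin genes, 5 higher calls had more than 10% of their MHTO8 counts in 1 cell. Sftpc, the surfactant protein of alveolar epithelium, had 84.0% of its counts there and stood at 72.5 CPM in MHTO8 and 15.2 CPM in MHTO10. Epas1, a hypoxia-inducible factor of endothelium, had 41.6%, Clic4 23.2%, Klf4 17.0% and Cd74, the invariant chain of MHC class II, 10.7%. Scgb1a1, the club cell secretory protein, was at 99.3 CPM in MHTO8 and 117 CPM in MHTO10.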
